A study of Caenorhabditis elegans with 2 samples.

Results

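The histone genes of Caenorhabditis elegans were examined for peaks of RNT-1, the RUNX transcription factor of the worm, in late embryos. Histone genes were taken as all protein-coding genes whose symbol begins with his-, hil- or htz-, which gave 81 of the 19973 nuclear protein-coding genes. Of these, 67 were clustered, with the start of another histone gene within 5 kb, and 14 stood alone. They fell into 29 separate loci, 15 of them with more than 1 gene. The Ensembl annotation gave the 81 genes only 59 distinct symbols, because several genes share a symbol, and 22 genes were renamed from RefSeq through their WormBase identifiers.

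Chromatin immunoprecipitation with sequencing (ChIP-seq) was performed on whole hermaphrodite late embryos of strain OP462, which carries the unc-119(tm4063) allele on chromosome III and the transgene wgIs462, collected 5 h after synchronization by egg bleaching. The transgenic line stably expressed RNT-1 with a GFP and FLAG tag at its C terminus, and the tagged protein was precipitated with an antibody against GFP as the sample notes say. The label for the antibody names rnt-1. Both samples were biological replicates of this 1 group, with no second condition, so each histone gene was set beside all protein-coding genes of the same embryos. The signal comes from tagged protein in all cells of the embryo together, and a site used in few cells cannot be told apart from a weak site used in many.

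RUNX proteins bind DNA through the Runt domain, with a preference for short words of the form TGTGGT or TGCGGT, and act with a CBF-beta partner to switch target genes on or off. In the worm, RNT-1 is known for promoting divisions of the seam cells of the epidermis. Core histones H2A, H2B, H3 and H4 form the nucleosome, and linker histone H1 binds the DNA between nucleosomes. Most core histone genes are replication-dependent: they lack introns, lie in clusters of near-identical copies and are transcribed as divergent pairs when DNA is copied. Variant histones such as H2A.Z and H3.3, and the linker histones, come mostly from single genes that can be used outside DNA replication.

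The DNA under 8 of the 9 histone peaks described below is shown first, because a word at some of them recurs at other histone genes. Each line gives the 101 bases centred on a peak summit, read 5′ to 3′ on the + strand of ce11 (WBcel235) from the RefSeq sequence. Capitals mark a 14-base word, atgtgtccccgcag, or a copy of it on either strand with at most 1 mismatch. The last line is the middle of the spacer between his-50 and his-49, a divergent pair with no region in any list, read on the - strand. The word was chosen after the sequences and the peaks were seen, as the longest word shared by the his-37 summit, the his-24 summit and this spacer, so its presence in those 3 places is given by the choice. It lay within 50 bp of the summit at 4 of the 9 histone peaks, one of them the peak not shown.
his-37 chrV:9546930-9547030: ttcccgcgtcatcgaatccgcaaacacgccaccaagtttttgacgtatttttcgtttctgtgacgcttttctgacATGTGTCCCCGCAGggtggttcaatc
his-24 chrX:14489976-14490076: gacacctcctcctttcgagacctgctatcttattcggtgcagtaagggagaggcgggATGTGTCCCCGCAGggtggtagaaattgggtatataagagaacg
his-31 and his-32 chrIV:8334132-8334232: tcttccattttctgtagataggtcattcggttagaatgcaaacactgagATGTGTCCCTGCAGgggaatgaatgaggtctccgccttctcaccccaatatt
his-61 and his-62 chrIV:7486348-7486448: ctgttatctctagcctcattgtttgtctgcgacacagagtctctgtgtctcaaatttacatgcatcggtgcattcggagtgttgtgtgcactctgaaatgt
htz-1 chrIV:4445866-4445966: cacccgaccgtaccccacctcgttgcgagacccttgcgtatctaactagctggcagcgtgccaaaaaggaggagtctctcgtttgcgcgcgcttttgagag
hil-7 chrIV:6646107-6646207: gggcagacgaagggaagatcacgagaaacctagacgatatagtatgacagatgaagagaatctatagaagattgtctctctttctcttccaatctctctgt
his-35 and his-41 chrV:9545417-9545517: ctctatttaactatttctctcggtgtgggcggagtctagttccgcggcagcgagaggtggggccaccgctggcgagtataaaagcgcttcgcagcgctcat
his-72 chrIII:12368935-12369035: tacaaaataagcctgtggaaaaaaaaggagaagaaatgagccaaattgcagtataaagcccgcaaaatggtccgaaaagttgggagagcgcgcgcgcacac
his-50 and his-49 spacer chrV:8847773-8847873: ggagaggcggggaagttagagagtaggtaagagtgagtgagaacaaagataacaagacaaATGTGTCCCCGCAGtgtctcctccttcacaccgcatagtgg

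RNT-1 peaks were found at the starts of 13 of the 81 histone genes, or 16% (exact Clopper-Pearson 95% interval 8.83 to 25.9), set beside 6.75% of all protein-coding genes, 1349 of 19973. These were genes with a summit of the IDR list, the shorter list of peaks thresholded by the irreproducible discovery rate, from 1000 bp upstream to 200 bp downstream of an annotated start. The narrower window of 500 bp upstream to 100 bp downstream held the same number, 13 of 81, against 5.10% of all genes. The 13 genes rested on only 9 peaks, because 4 peaks lay between 2 divergent histone genes and counted for both. Clustered genes had 9 of 67, or 13.4% (interval 6.33 to 24.0), on 5 peaks, and single genes had 4 of 14, or 28.6% (8.39 to 58.1), on 4 peaks. Intervals cover counting error only. Genes of a pair share a peak, so these counts are not independent, and no test of the difference was made.

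The highest histone peak lay between his-67, an H4 gene, and his-68, an H2A gene, on chromosome I from 9988849 to 9989093, with an authors' signal of 444 in the pooled list. That signal is a deposited score with no stated scale, and it is used here only to order regions within 1 list. The peak ranked 22 of 19793 pooled regions, 29 in replicate 1 and 15 in replicate 2. Its summit was 207 bp upstream of his-67 and 162 bp upstream of his-68. The same summit also lay in the start window of alg-5, an Argonaute gene.

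The H4 gene his-37, on chromosome V, carried the next peak, from 9546899 to 9547099. Its signal was 291, with rank 118 in the pooled list, 106 in replicate 1 and 127 in replicate 2. No other gene start shared it, and the summit lay 125 bp upstream of the start. Unlike most core histone genes, his-37 has an intron in its coding sequence.

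Among the linker and variant genes, 4 had an IDR summit. The linker histone gene hil-7 had a signal of 177 and ranked 858 in replicate 1 and 298 in replicate 2. The start window of a snoRNA gene, C01B10.48, held the same summit. The H2A.Z gene htz-1 had a signal of 170 on chromosome IV from 4445698 to 4446133, with ranks 647 in replicate 1 and 738 in replicate 2. Its summit lay 300 bp upstream, also inside the start window of wapl-1, a cohesin release factor gene. The linker histone gene his-24 had 105, with its summit 68 bp upstream and ranks of 1890 in replicate 1 and 1485 in replicate 2. A non-coding RNA gene, M163.19, held the same summit in its start window. The H3.3 gene his-72 had the lowest signal of the 13, at 101, with rank 3609 in replicate 1 and 929 in replicate 2. Its summit lay 65 bp downstream of the nearer of its 2 annotated starts, and also in the start window of the snoRNA gene Y49E10.36.

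The other peaks lay between divergent core histone genes. The H2A gene his-61 and the H2B gene his-62 shared a signal of 163, and the peak ran on chromosome IV from 7486180 to 7486615. The H4 gene his-31 and the H3 gene his-32, also on chromosome IV, shared 120. The H2A gene his-35 and the H2B gene his-41 shared 102 with C50F4.6, and ranked 1327 in replicate 1 and 2918 in replicate 2. The peaks at his-35 and his-41 and at his-72 therefore fell outside the 1931 strongest regions of 1 replicate each. In all, 8 of the 13 genes shared their summit with the start window of a gene that is not a histone gene. The median signal of the IDR list was 138, and its lowest was 95.8.

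**Figure D1:**
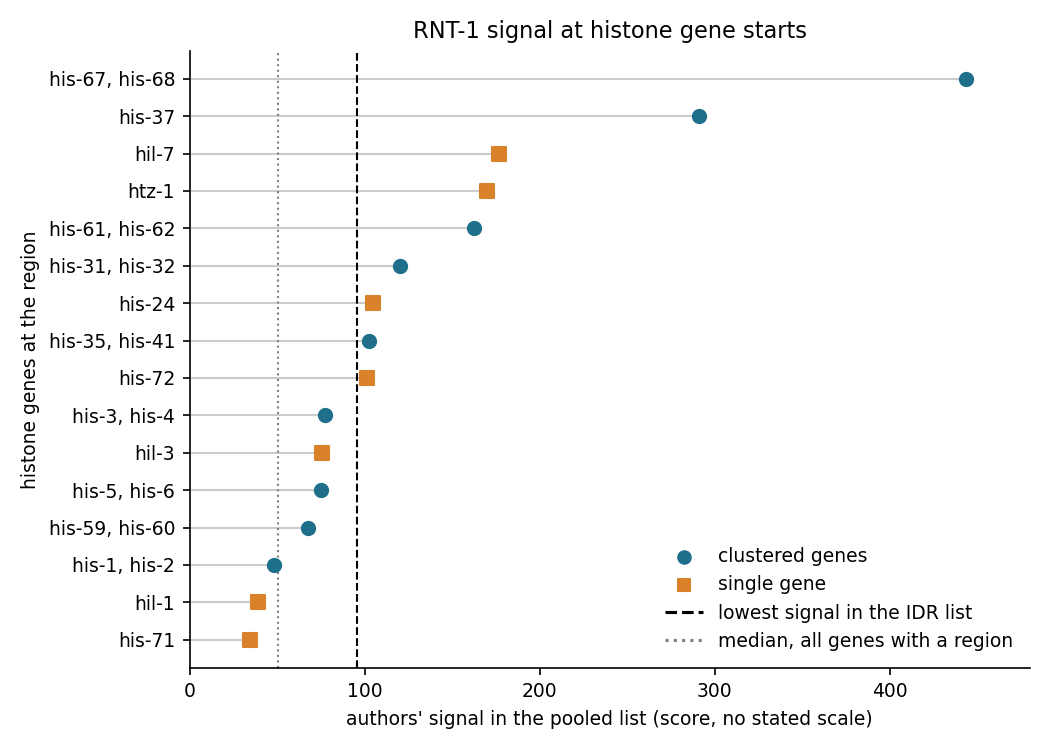
Authors' signal (score, no stated scale) of the strongest pooled-list region at each histone gene start, one row per region, with circles for clustered genes and squares for single genes. The dashed line is the lowest IDR signal, 95.8, with 9 regions above it and 7 below, and the dotted line is the median of all genes with a region, 50.3.

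Below the IDR threshold, 11 more histone genes had a region in the pooled list, which keeps background regions. The H2A gene his-3 and the H2B gene his-4 came first with a shared signal of 77.0 at rank 2839. The linker gene hil-3 followed with 75.6, although it ranked 1974 in replicate 1 and 13514 in replicate 2. The H4 gene his-5 and the H3 gene his-6 had 75.2, and the H3 gene his-59 and the H4 gene his-60 had 67.6. Weaker still were the H4 gene his-1 and the H3 gene his-2 with 48.1, the linker gene hil-1 with 39.1 and a summit 938 bp upstream, and the H3.3 gene his-71 with 34.2. The IDR threshold thus fell between his-72, at 101, and the pair his-3 and his-4, at 77.0.

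In all, 24 of 81 histone genes had a pooled region, or 29.6%, beside 31.4% of all genes. In the narrower window it was 23 genes, beside 22.2%. At this lower threshold the histone share was thus near that of all genes, while the strongest pooled signal at the 24 genes had a median of 102, beside 50.3 over the 6268 genes of the genome with a region. Each replicate list alone held 26 histone genes, or 32.1%, beside 29.5% of all genes in replicate 1 and 33.5% in replicate 2. Both lists held 23, or 28.4%, beside 22.1%. With the 1931 strongest regions of a replicate in place of the IDR list, replicate 1 gave 12 histone genes beside 6.63% of all genes, and replicate 2 gave 11 beside 6.62%. The 2 replicates put 10 histone genes among these strongest regions in common.

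**Figure D2:**
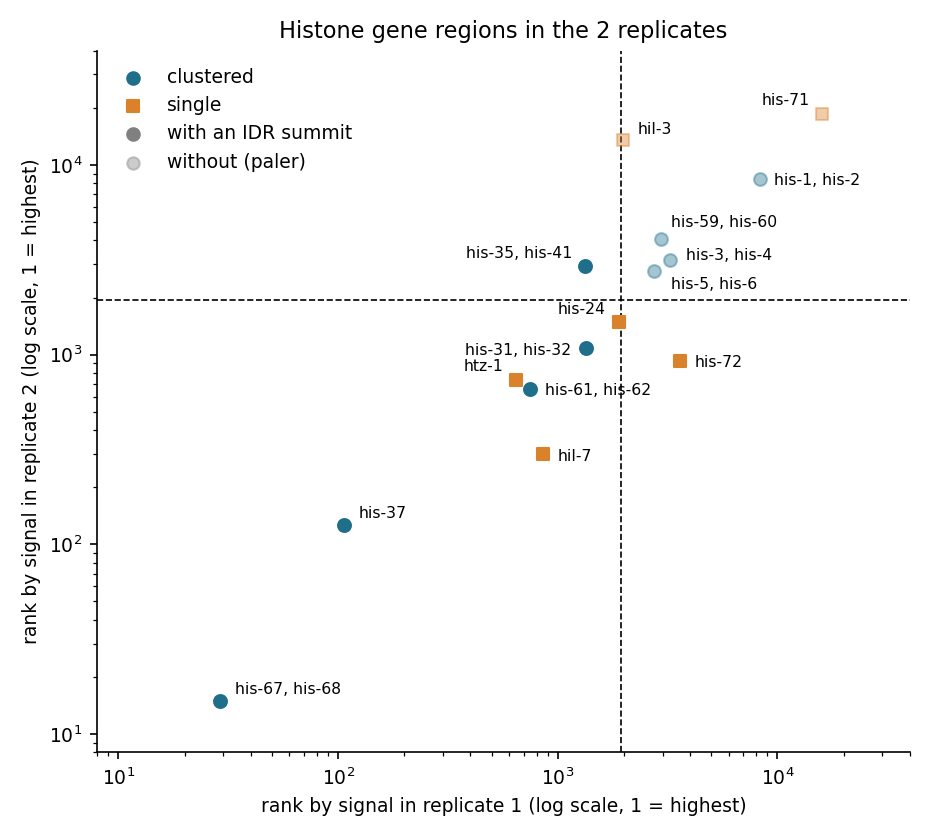
Rank by signal in replicate 1 (horizontal, log scale) and replicate 2 (vertical, log scale) of each histone region present in both, with paler marks for regions without an IDR summit and dashed lines at rank 1931. The his-67 and his-68 region is near the top of both, at 29 and 15, while hil-3 stands at 1974 in replicate 1 and 13514 in replicate 2.

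No region in any of the 4 lists was found at 52 histone genes. Among linker genes, hil-4, hil-5, hil-6 and hil-8 had none, and hil-2 had one in replicate 1 only, at rank 5271. Among H3.3 and H3.3-like genes, 1 of 5 had an IDR summit and 2 had a pooled region. The other classes had IDR summits at 2 of 9 linker genes, 3 of 17 H2A genes, 1 of 1 H2A.Z gene, 2 of 16 H2B genes, 1 of 15 H3 genes and 3 of 16 H4 genes, beside 6.75% of all genes with an IDR summit and 31.4% with a pooled region. These class counts are small, and the exact interval for H3 genes, 0.169 to 31.9% around 6.67%, spans the share of all genes. Neither of the 2 unclassified genes, his-39 and his-73, had one. All 14 histone genes on chromosome II lacked a pooled region, which 31.4% of all genes had, and their start windows held a median of 0% and at most 88.7% unique words of 50 bases.

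Core histone genes ran mostly as divergent pairs, and 31 such pairs were found, 16 of H2A with H2B, 14 of H3 with H4 and 1 of H2A with H4. The spacer between the 2 annotated starts measured 227 to 368 bp, with a median of 258 bp. The pooled list had a region at 8 of the pairs, and all 8 summits lay inside the spacer, 17 to 55 bp from its middle. The IDR list had 4 of these, at his-67 and his-68, his-61 and his-62, his-31 and his-32, and his-35 and his-41.

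None of the 8 pairs with a region had a spacer at least 95% identical to another of the same classes. Compared by global alignment with the other spacers of the same classes, their closest match ranged from 52.0% to 94.9% identical, with a median of 85.8% (the H2A-H4 spacer has no other of its kind). The 23 pairs without a region had closest matches of 89.4% to 100%, with a median of 100%, and 20 of them were at least 95% identical to another spacer. The ranges overlapped, since the spacer of his-6 and his-5, which had a region, was the one at 94.9%. In words of 50 bases, the spacers with a region were 97.9% to 100% unique in the genome, meaning that this share of the words occurred once on either strand. Spacers without one ranged from 0% to 100% with a median of 0%. Of the 10 pairs whose spacer was at least 90% unique, 8 had a pooled region and 4 an IDR summit, and of the 21 less unique spacers none had a region. Divergent pairs of other genes were not counted, so no share over all such pairs stands beside these counts. By gene, 33.2% of all genes with start windows at least 90% unique had a pooled region, and 7.09% an IDR summit. The 2 unique spacers without a region were those of his-38 and his-40 on the X chromosome, 100% unique, and of his-63 and his-64 on chromosome IV, 96.1% unique.

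**Figure D3:**
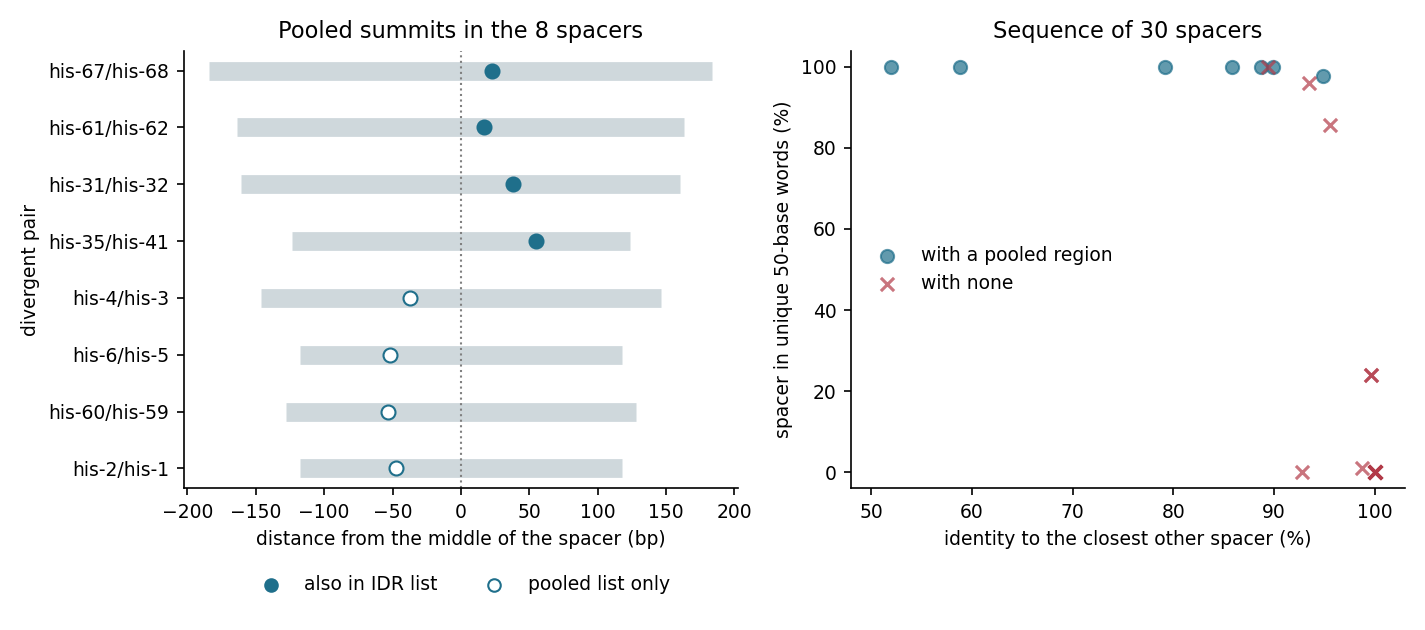
Left, spacers of the 8 divergent pairs with a pooled region, drawn to scale as bars, with the pooled summit as a filled circle where the IDR list also has it and an open one otherwise, against distance from the spacer's middle (bp). Right, identity to the closest other spacer of the same classes (horizontal, %) against the share of unique 50-base words (vertical, %) for 30 spacers, where 20 of the 23 spacers without a region lie at 95% identity or more.

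The same held for the windows around the starts. The window of 1000 bp upstream to 200 bp downstream was 55.1% unique at the median histone gene, and 100% unique at the median gene of the genome. The 13 genes with an IDR summit had windows of at least 91.1%. Of the 28 histone genes with a window at least 90% unique, 13 had an IDR summit, or 46.4% (27.5 to 66.1), beside 7.09% of all genes with such windows. A pooled region was present at 19 of the 28, or 67.9%, beside 33.2%. Of the 53 histone genes below 90%, none had an IDR summit, where 3.96% of all such genes had one, and a count of 0 of 53 allows up to 6.72% by the exact interval. A pooled region was present at 5 of these 53, or 9.43%, beside 15.8%. The mix of windows below 90% differed, so these shares are not like for like. Of the 53 histone genes, 28 were under 10% unique, against 241 of 2122 genes of any kind. From 50 to 90% unique, 5 of 13 histone genes had a pooled region, beside 19.7% of all genes. In that range 0 of 13 had an IDR summit, beside 4.92%. From 10 to 50% unique, 0 of 12 histone genes had a pooled region, beside 4.29%. The split at 90% was chosen after the data were seen.

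The uniqueness of the sequence therefore moved with the peak counts in the genome as a whole and within the histone genes. Of 241 genes of any kind with windows under 10% unique, 28 of them histone genes, none had a region in the pooled list. Whether reads that match several places were kept is not given in the sources used here, and the part of repeated sequence in the missing regions was not tested. Clustered genes were the less unique, with a median of 21.8% against 100% for single genes. Among windows at least 90% unique, 9 of 15 clustered genes and 4 of 13 single genes had an IDR summit, beside 7.09% of all genes. The 9 clustered genes rested on 5 peaks.

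**Figure D4:**
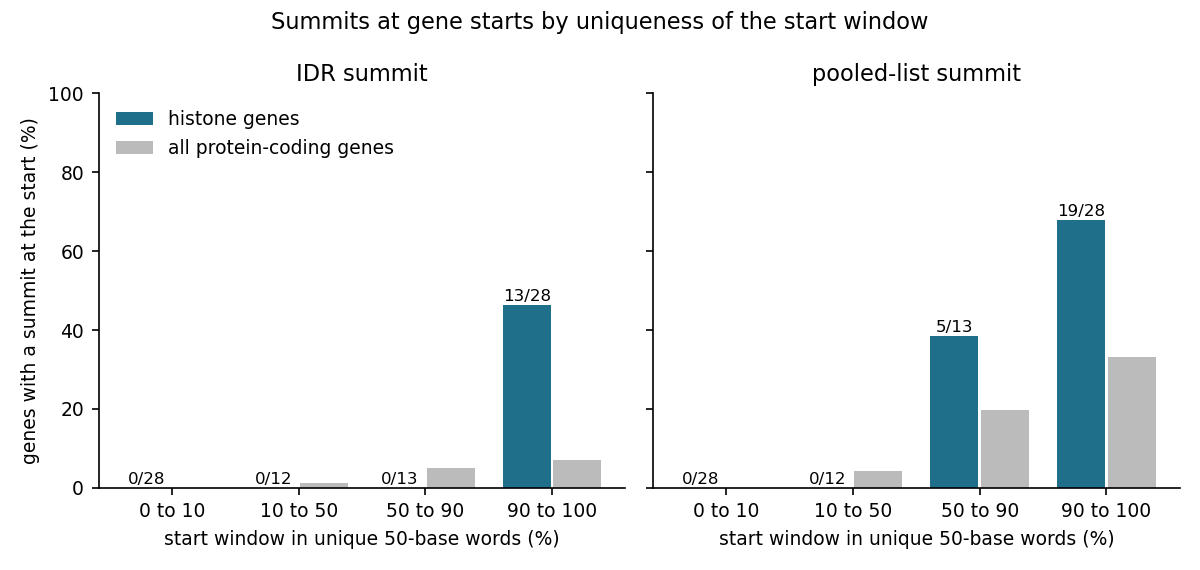
Share of genes (%) with a summit at the start, IDR list on the left and pooled list on the right, by the share of unique 50-base words in the start window, for histone genes (dark bars, with counts) and all protein-coding genes (grey bars). In windows of 90 to 100% unique words, 13 of 28 histone genes had an IDR summit and 19 a pooled region, and under 10% none had either.

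Counts also differed by gene structure, a comparison for which no test was made. An IDR summit was present at 7 of 17 histone genes with such an intron, or 41.2% (18.4 to 67.1), and at 6 of 64 without, or 9.38% (3.52 to 19.3). Over all genes the shares were 6.86% with an intron and 3.92% without. Windows of histone genes with an intron were 100% unique at the median, against 21.3% for those without. Among windows at least 90% unique, the counts were 7 of 16 with an intron and 6 of 12 without, beside 7.09% of all genes with such windows. Both groups hold divergent pairs that share a peak, so these counts are not independent.

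The 14-base word shown in capitals above occurred 30 times in the nuclear genome on either strand. At least 12 of these places lay in the narrower start window (500 bp before to 100 bp after the start) of a histone gene. That count takes 1 place per gene. Because pairs share a place, 22 of 81 histone genes, or 27.2%, had the exact word in this window, against 2 of the 19892 other protein-coding genes, K07C5.13 and fbxb-107. With at most 1 mismatch it was 45 of 81 histone genes, or 55.6%, against 5 of the others, or 0.0251%. None of those 5 had an IDR summit. By class, the word with at most 1 mismatch was at 2 of 9 linker, 11 of 17 H2A, 10 of 16 H2B, 10 of 15 H3 and 12 of 16 H4 genes, and at none of the H2A.Z, H3.3, H3.3-like and unclassified genes. Many of these genes are copies of each other, so the number of separate origins of the word is smaller than these counts. The counts also include his-37, his-24, his-50 and his-49, where the word is present by its choice. The spacer of his-28 and his-27, 100% identical to that of his-50 and his-49, is included too.

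The word lay close to the annotated start, with its centre 235 to 52 bp upstream and a median of 124 bp upstream. Where a window held more than 1 copy, the copy with the fewest mismatches and then nearest the start was taken. The linker genes his-24 and hil-2 had the word at 54 bp and 52 bp upstream. At intronless core genes the annotated start may be the start codon rather than the start of the transcript, which was not checked. Distances at core and linker genes may therefore not be counted from like points. The word occurred both with and without a region. By gene, it was present at 16 of 24 with a pooled region (66.7%) and 29 of 57 without (50.9%). At the 16 genes with both, the pooled summit lay 0 to 83 bp from the centre of the copy taken, with a median of 33.5 bp. The 83 bp is at his-61, where the copy taken for his-62 lay 54 bp from the same summit. Most of these genes are divergent pairs that share a summit, so these values are not independent. Spacers of pairs with a region measured 236 to 368 bp, which limits how far a summit and a word inside them can lie apart. The summit of his-3 and his-4 fell on the word itself, and that of his-31 and his-32 lay 6 bp away. Among divergent pairs, the spacer held the word at 7 of 8 pairs with a region and at 14 of 23 without. Within 50 bp of the 1923 nuclear IDR summits it occurred at 4 with at most 1 mismatch, all of them histone peaks. The his-37 and his-24 summits are among these 4, and the choice of the word places it within 50 bp of them.

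**Figure D5:**
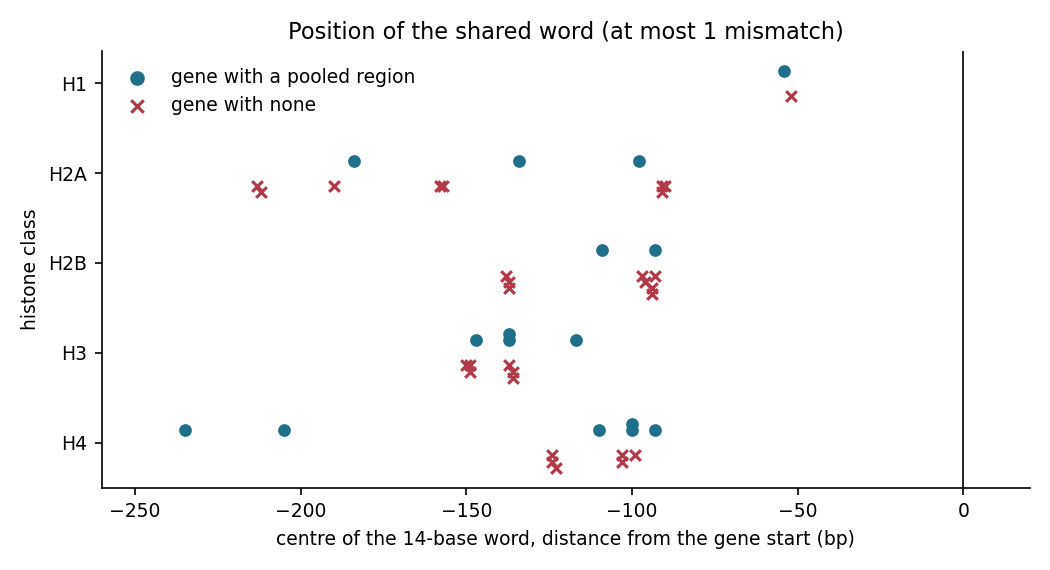
Distance (bp) from the annotated gene start to the centre of the 14-base word with at most 1 mismatch, by class. One mark is drawn per histone gene that has the word, for the 1 copy taken. Circles are genes with a pooled region and crosses genes with none. All copies drawn lie between 235 and 52 bp upstream, and both kinds of gene occur in each of the 5 classes.

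The words known for RUNX proteins were not found at the histone summits. Within 50 bp of the 9 summits, TGTGGT and TGCGGT, searched on both strands, occurred at 0 of 9, while 8.42% and 6.97% of all 1923 nuclear IDR summits held them. The absence says only that these letters were not in these 9 windows. Searched in the same way, GAGAGA occurred at 4 of 9, beside 29.7% of all summits, and TATAAA, a core promoter word, at 2 of 9, beside 4.26%. In the start windows of 500 bp to 100 bp the picture differed, since TGCGGT was present at 60.5% of histone genes, against 12.6% of all genes, and TGTGGT at 28.4%, against 23.9%. Of the 13 genes with an IDR summit, 5 had TGCGGT and 2 had TGTGGT in this window. TATAAA was at 75.3% of histone genes, against 62.5% of all genes, and GAGAGA at 45.7%, against 37.9%. Copies of one sequence weigh in the histone shares here too. The 101 bases at the histone summits had a median GC content of 47.5%, against 49.5% over all IDR summits.

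A list of 19 related genes was taken with earlier results of these data known. It holds genes of histone chaperones, of remodelers and of histone mRNA processing, and knl-2. It also holds the variant histone genes hcp-3, cpar-1 and htas-1, whose symbols do not begin with his-, hil- or htz-. Of the 19 genes, 5 had an IDR summit in the wide window, or 26.3%, 4 of them in the narrow one, and 14 had a pooled region. Over all genes the shares were 6.75% in the wide window, 5.10% in the narrow one and 31.4% for a pooled region. The highest was chaf-2, a subunit of the chromatin assembly factor CAF-1, with a signal of 370, rank 43 in replicate 1 and rank 62 in replicate 2. The histone-binding RbAp protein gene lin-53 had 274, and unc-85, which encodes the H3-H4 chaperone ASF1, had 146. The ATRX-like remodeler gene xnp-1 had 139, with its summit 578 bp upstream, and the CAF-1 subunit gene chaf-1 had 99.9. The gene cdl-1, whose product binds the stem-loop of histone mRNA, had a pooled region of 71.3 and no IDR summit, and the centromeric H3 gene hcp-3 had 54.7. No pooled region was found at asfl-1, cpar-1, htas-1, hmg-3 and rba-1.

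Other ways of assigning peaks gave histone counts beside other shares of all genes. With a window of 2000 bp upstream to 500 bp downstream, 15 histone genes had an IDR summit beside 9.15% of all genes, and with any overlap of the peak it was 13 beside 7.36%. With the 5′ end of the gene as its only start it was 13 beside 6.11%. The 965 strongest IDR peaks gave 7, or 8.64% (exact interval 3.55 to 17.0), beside 3.70%. When each summit was given to its nearest start alone, which splits the shared peaks, 8 histone genes remained. That was 9.88% (4.36 to 18.5), beside 5.11%. Both of these intervals span the share of all genes. The intervals for the wider window, any overlap and the 5′ end began at 10.8%, 8.83% and 8.83%. Each of these counts rested on 9 peaks, with both genes of a pair counted, so its interval is too narrow and is no test. With words of 36 bases in place of 50, 9 of 18 histone genes at least 90% unique had an IDR summit beside 7.12% of all such genes, and 4 of 63 below it did, beside 4.37%.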

How the data were processed

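The files hold narrowPeak regions, listed per replicate (18427 regions in replicate 1, 21390 in replicate 2), for both replicates pooled (19793) and thresholded by IDR (1931). The authors deposited the signal of each region as a score with no stated scale, and the summit as an offset in bases. A control alignment is named in the file descriptions. Not given in the sources used here were aligner, caller, read length and IDR cutoff. Read depth is unknown. Lists on ce10 were not used.

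Starts (29314) were those of protein-coding transcripts in Ensembl release 115 on WBcel235. Sequences, names of copies and most classes came from the RefSeq release of the same assembly. The linker class (his-24 and the hil- genes) and the H2A.Z class (htz-1) were set by gene symbol. A gene was called where a summit lay in its window. Uniqueness was counted over words of 50 bases on both strands. Scripts used Python 3.11.15, NumPy 2.4.6, SciPy 1.17.1, Biopython 1.88 and matplotlib 3.10.9 and were tested on simulated data. Named genes were all histone genes with an IDR summit, the 10 strongest without one, the single linker and variant genes, and the related genes with an IDR summit. Members, lists and windows were chosen with earlier results of these data known. Alternatives were other windows, starts, overlaps, thresholds, cluster distances and single replicates, and, added after the data were seen, unique windows only.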

Additional observations from a re-analysis of the deposited data

How the results depend on the processing

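The count of 13 histone genes with an IDR summit was 8 when each summit went to its nearest start and 7 with the 965 strongest IDR peaks. For clustered genes, 9 at first, these settings gave 5 and 5, and windows at least 90% unique in words of 36 gave 5. For single genes, 4 at first, the 965 strongest peaks gave 2. With 1 replicate left out, the counts were 11 to 12 of all, 7 to 9 of clustered and 3 to 4 of single genes. The other windows, the 5′ end alone, any overlap and cluster distances of 2 and 20 kb left each count within 1.5 times its value. The median signal of histone genes with a pooled region, 102, was 0 with the genes that have no region counted as 0, and 31.3 to 54.2 with 1 replicate left out, where the signal comes from another list with its own scale. No paired analysis was possible because all samples form 1 group. Depth, the scale of the signal and the treatment of reads from repeated sequence are unknown, so a gene without a region may be unbound or unmeasured.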

Other observations

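Some histone genes lay in long stretches with no pooled summit. On chromosome V, 14 core histone genes from his-50 to his-18, in 2 loci, lay in a stretch of 121674 bp without a summit, the second longest between summits on that chromosome, where the median is 2992 bp. The stretch was 28.8% unique in words of 50 bases, and the 2 loci were 0% and 1.62% unique. The linker gene hil-5 on chromosome I lay in a stretch of 80672 bp, the longest of its chromosome in the pooled list and in both replicates. That stretch was 98.8% unique and also held rnt-1 itself, the gene tagged in the transgene. The linker gene hil-2 lay in a stretch of 83065 bp on chromosome IV, 91.0% unique, in the pooled list. In replicate 2 the stretch was 31527 bp, and in replicate 1 it was 3234 bp, with a region 94 bp upstream of the hil-2 start.

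Apart from hil-2, single replicate lists held regions at 4 more histone genes that the pooled list lacks. These were his-73 in replicate 1, at rank 13300, and his-15, his-65 and his-74 in replicate 2, at ranks 5602, 20789 and 20059.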
